A study of Mus musculus with 12 samples.

Results

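The miR-297, miR-466, miR-467 and miR-669 family is a set of rodent microRNAs (miRNAs), most of whose genes lie in tandem copies within the gene Sfmbt2 on mouse chromosome 2. Its members were taken from the nCounter miRNA panel by name: every mouse miRNA probe that names a miR-297, miR-466, miR-467 or miR-669. This gave 33 of the 566 mouse probes, which carry 39 miRNA names because 4 probes name more than 1. Small RNA came from isolated optic nerves of male C57Bl/6 mice in 4 groups of 3 samples, read from the agent label. These were oxygen-glucose deprivation (OGD) with MS-275, OGD with CX-4945, OGD alone, and Control. MS-275, also called entinostat, blocks class I histone deacetylases, and CX-4945 (silmitasertib) inhibits casein kinase 2. The oxygen and glucose removal that the first 3 groups share is a model of ischaemia in an excised white-matter tract, without blood flow and without the retina. The sources used here do not state doses, durations, age or how many animals gave a sample, and no group had a drug without OGD. Nothing in the labels says that replicates came from separate animals, so the tests measure the spread between these samples, which may be technical.

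Sfmbt2 encodes a polycomb-group protein, is imprinted, and is expressed from the paternal allele, above all in extraembryonic tissue. A large intron of the mouse gene holds the repeated miRNA hairpins, and the cluster is known for its part in growth of the placenta. A miRNA finds its targets mainly by its seed, bases 2 to 8 of the mature strand. Several members are named for other roles: miR-669a represses MyoD in muscle progenitors, miR-467b targets lipoprotein lipase, miR-466l stabilises the Il10 transcript in macrophages, and miR-466h-5p promotes apoptosis in glucose-starved hamster ovary (CHO) cells.

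The family name covers more than the Sfmbt2 cluster. In the RefSeq gene table of mouse build GRCm38.p6, 81 genes carry a family name, of which 71 lie within the bounds of Sfmbt2 and 10 lie elsewhere. Of the 33 members, 25 name only genes within Sfmbt2, 5 name only genes elsewhere (miR-466i, miR-466j, miR-466k, miR-467f and miR-467g), and 3 name both kinds on one probe. The name miR-466a matched no gene in that table. Its 3p and 5p probes were counted among the 25 by their other names, miR-466b-3 and miR-466e. Whether each gene lies in an intron was not looked up, since that table gives gene bounds only. Some names stand for many copies: 12 genes within Sfmbt2 carry the name miR-669a and 10 the name miR-467a, so one probe can read all of them. Close family members can also share signal on a probe, and how far they do was not measured.

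Mature sequences were matched by exact name in RefSeq's miRNA table (GRCm38.p6) for 5 members, and all 5 strands come from genes outside Sfmbt2. The probe of miR-467h also names miR-669d and miR-669l, which lie within it. The 5 sequences are shown because they alone matched, and because miR-467f is one of the members measured above background. No sequence from a gene within Sfmbt2 was matched, so they do not show what the members of that cluster carry. Bases 2 to 8, the seed, are in capitals, and each sequence runs 5′ to 3′.
miR-467f: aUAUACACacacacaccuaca
miR-467g: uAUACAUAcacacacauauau
miR-466j: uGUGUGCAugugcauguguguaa
miR-466k: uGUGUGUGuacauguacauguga
miR-467h: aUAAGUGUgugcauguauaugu
These mature sequences lie at chr11:69635419-69635439 on the minus strand (miR-467f) and chr5:34732872-34732892 on the minus strand (miR-467g). The others lie at chr10:60960802-60960824 on the plus strand (miR-466j), chr3:85467396-85467418 on the plus strand (miR-466k) and chr9:115381898-115381919 on the plus strand (miR-467h). The 5 seeds all differ from one another. miR-467f and miR-467g are rich in A and C, which make up 85.7% and 71.4% of their bases. miR-466j, miR-466k and miR-467h are rich in G and U, at 73.9%, 69.6% and 68.2%. Each holds a run in which U and G, or C and A, alternate: 12 bases in miR-467f, 9 in miR-467g and in miR-466k, and 7 in miR-466j and in miR-467h. Of the 1674 distinct mature sequences in the table, 13 (0.777%) hold such a run of 8 bases or more, and 3 of the 5 members do.

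Total counts over the miRNA probes lay between 255154 and 542933 per lane, one lane per sample. The background limit used here, 2 SD above the mean of the 8 negative probes of a lane, which have no target in the sample, ran from 32.0 to 60.6 counts. It was lower in Control, at 32.0 to 33.7 counts, than in any lane with OGD, where the lowest was 38.7. OGD replicate 2 stood apart with the lowest total, the highest negative-probe mean (26.2 counts) and the fewest mouse probes above the limit (27.2%, against 30.9% to 39.6% in the other lanes). The ligation controls, RNAs that report how well the tag was joined, were higher in OGD+MS-275 (geometric means 2914 to 3155 counts) than in OGD (1109 to 2423) and in Control (1386 to 2369), with no overlap. The defining miRNAs of oligodendrocytes, neurons, leukocytes and endothelium were above the limit in all 12 lanes, and of the retina list only miR-204 was. The 3 skeletal muscle miRNAs (24 to 115 counts) passed it in some lanes, and none did in all 12. The 16 probes of the clusters from miR-290 to miR-295 and of miR-302 with miR-367, which mark pluripotent and early embryonic cells, stayed under the limit in all lanes, with at most 28 counts.

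Most of the family was at background in the optic nerve. Of the 33 members, 23 were under the limit in all 12 lanes, 2 passed it in 1 or 2 lanes, and 8 passed it in at least 3 lanes, the minimum for testing. The 8 are miR-466a-3p with miR-466b-3-3p on one probe, miR-466g, miR-467a, miR-467b, miR-467f, miR-669a, miR-669f and miR-669o. Their share, 24.2%, compares with 217 of all 566 mouse probes (38.3%). It also compares with 28 of 56 probes (50%) of the Dlk1-Dio3 cluster, another imprinted miRNA cluster, and with 0 of 25 of an X-linked germline cluster. These shares describe the panel and were not tested. By name group, 0 of 4 miR-297, 2 of 13 miR-466, 3 of 8 miR-467 and 3 of 11 miR-669 probes were tested, where a probe with several names counts in each. Of the 25 members within Sfmbt2 only, 7 were tested (28%), and of the 5 elsewhere only, 1 was (20%).

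**Figure D1:**
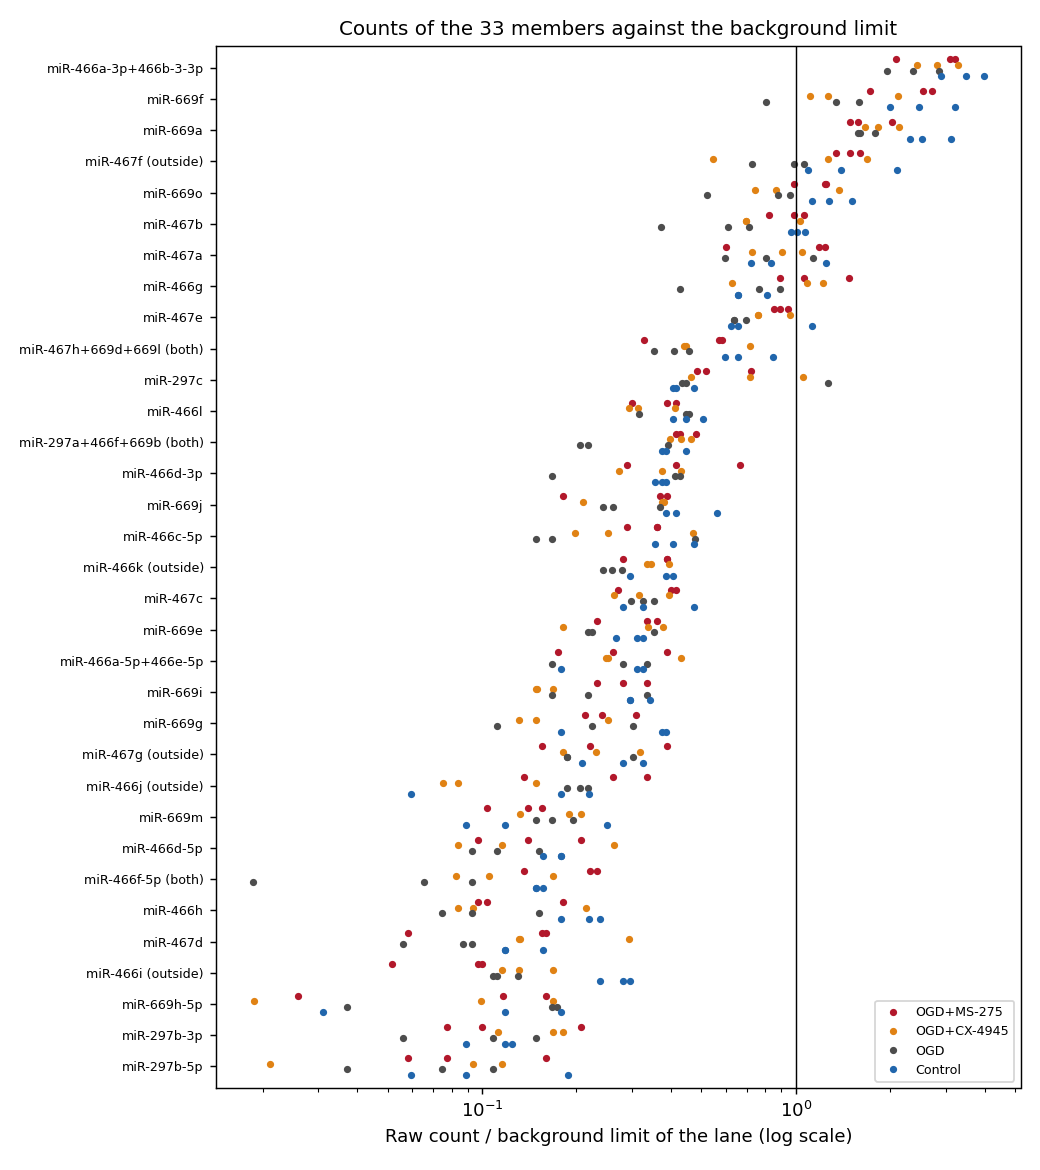
Raw count of each of the 33 members in each of the 12 lanes, divided by that lane's background limit (log axis; the line at 1 is the limit), with colours for the 4 groups. Members are ordered by their median; those marked outside or both have genes outside Sfmbt2 only or on both sides. The 23 members that never crossed the line reached at most 38 counts.

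The counts behind these calls were small. Over all members and lanes they ran from 1 to 175 counts, and 66 of the 396 values were above the limit. In 16 members the count was under the mean of the negative probes in every lane, and in 22 members the median was. All members together made up 0.190% to 0.262% of the miRNA count of a lane, and the 8 tested members held 56.0% to 68.9% of that. Counts of different probes are given here as counts, since capture and ligation differ by probe and miRNA.

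2 members were above the limit in every lane. As normalised counts, scaled by TMM, a factor per lane that equalises most probes, the probe for miR-466a-3p and miR-466b-3-3p had 116.1, 107.9 and 110.3 in OGD+MS-275, 180.7, 115.6 and 123.6 in OGD+CX-4945, 141.9, 164.3 and 115.6 in OGD, and 174.5, 122.5 and 119.9 in Control. miR-669a had 75.6, 53.1 and 78.6 in OGD+MS-275, 106.7, 86.7 and 80.5 in OGD+CX-4945, 88.5, 133.0 and 78.5 in OGD, and 101.6, 131.7 and 87.1 in Control. For both, the OGD+MS-275 samples are at the low end, below all Control samples and touching the lowest OGD sample, and the other 3 groups overlap one another. miR-669f passed the limit in 11 lanes, all but OGD replicate 2, where it had 43 counts. miR-467f passed it in 9 lanes, miR-669o in 6, miR-467a in 5, and miR-466g and miR-467b in 4 each. These last members lie close to background.

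Among the untested members, miR-297c crossed the limit in 2 lanes, OGD replicate 1 with 68 counts and OGD+CX-4945 replicate 2 with 50, while its other lanes had 13 to 38. miR-467e crossed it once, in Control replicate 1 with 38 counts, although its 51 counts in OGD+CX-4945 replicate 3 were higher, because the limit there was 53.3. No group had either miRNA above the limit in all 3 samples.

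Where the panel reads both strands of a hairpin, the counts of the strands can be set side by side. These pairs, and miR-466h below, were picked with their values known. The 3p probe of miR-466a and miR-466b-3 had 93 to 175 counts, and the 5p probe of miR-466a and miR-466e had 6 to 23, under the limit in every lane. These probes share only the name miR-466a, so their counts need not come from the same hairpin. Capture and ligation can also differ between probes, as stated above. Both strands of miR-466d (9 to 33 counts for 3p and 4 to 14 for 5p) and of miR-297b (3 to 11 for 3p and 1 to 8 for 5p) were under the limit throughout. miR-466h had 9, 4 and 5 counts in OGD+MS-275, 13, 4 and 5 in OGD+CX-4945, 5, 4 and 7 in OGD, and 6, 7 and 8 in Control. All 12 values are under the mean of the lane's negative probes, which was 14.6 to 26.2 counts, so no level of miR-466h was detectable at this depth in any of the 4 groups.

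The number of members above the limit was 7, 8 and 4 in OGD+MS-275, 3, 6 and 8 in OGD+CX-4945, 5, 2 and 4 in OGD, and 7, 5 and 7 in Control. OGD had the lowest average (3.67 ± 1.53, SD, n = 3) and Control 6.33 ± 1.15, but OGD replicate 1 and Control replicate 2 both had 5, so the groups meet. The limit itself was 46.1 to 53.7 counts in OGD and 32.0 to 33.7 in Control. A count that passed in Control could therefore fail in OGD, so these numbers do not compare levels. The share of all mouse probes above the limit was also lowest in OGD, at 31.6% against 35.8% in Control on average. The part of the limit and of that share in the members' count was not tested. The summed member count after taking off the negative-probe mean, per 1000000 miRNA counts, was 1278, 1020 and 1180 in OGD+MS-275 and 1119, 1117 and 1129 in OGD+CX-4945. It was 1084, 744 and 958 in OGD and 1262, 1076 and 1142 in Control. Probes under the negative-probe mean of a lane added nothing to this sum or to the miRNA total it was scaled by. OGD is again lowest on average (929 ± 172 against 1160 ± 94.7 in Control, SD, n = 3 each), and OGD replicate 1 lies above Control replicate 2. Without taking background off, the order of these groups is turned: 2317 ± 267 on the same scale in OGD and 2242 ± 191 in Control.

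**Figure D2:**
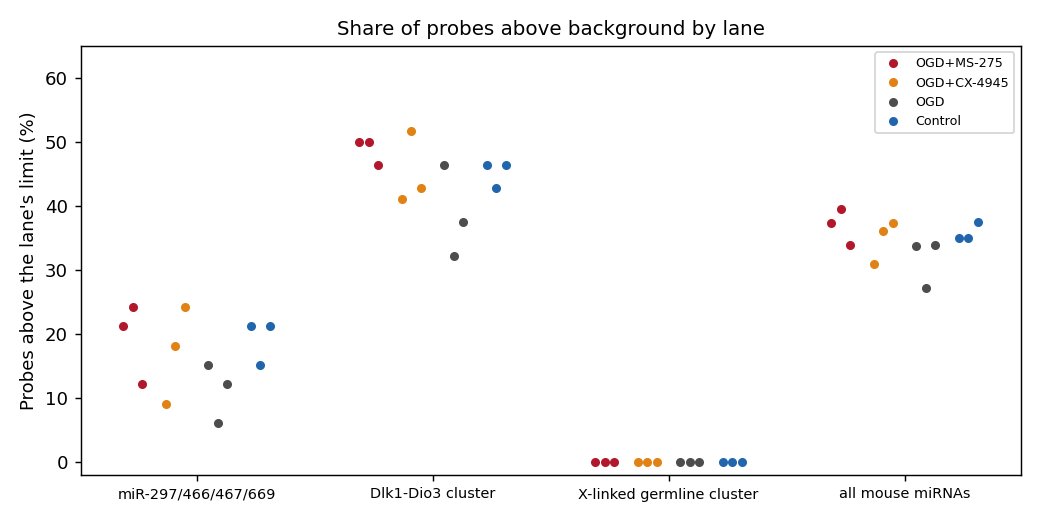
Percent of probes above the lane's background limit (vertical axis) for the miR-297, miR-466, miR-467 and miR-669 family (33 probes), the Dlk1-Dio3 cluster (56), an X-linked germline cluster (25) and all mouse miRNAs (566), 1 point per sample and a colour per group. The family lies under all mouse miRNAs in every lane, and OGD replicate 2 is the lowest point of its group in the 3 sets that have any.

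No group difference of any member passed the test. The test was edgeR's quasi-likelihood test on the raw counts of all 217 probes with Benjamini-Hochberg adjustment, and a member counts as called when its adjusted p is under 0.05. In the 6 pairwise comparisons and in the test of any difference among the 4 groups, 0 of 8 members were called, and DESeq2 and limma-voom called 0 as well. The groups are bulk tissue, so fewer cells of a type and less RNA per cell cannot be told apart. The median coefficient of variation within groups was 16.2% over all tested probes and 8.5% to 23.7% for the members. Levels below are TMM-normalised counts unless raw counts are named.

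OGD against Control asks what the deprivation alone changed. None of the 217 probes was called (0%). At an unadjusted p under 0.05, 1 of 8 members passed, against 5.53% of all probes. The 3 values of OGD and the 3 of Control did not overlap for 4 of 8 members, against 13.8% of all probes. 3 of the 4 were lower in OGD: miR-669f, miR-467b and miR-669o, while miR-466g was higher. miR-467b, miR-669o and miR-466g had no OGD lane above the limit and passed the filter through other groups. Their part in the count of 4 therefore supports nothing. The median log2 fold change of the 8 was −0.14, from −0.52 to 0.48, and that of all probes was 0.01.

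miR-669f had the smallest p of the members and the second smallest of all 217 probes. Its normalised counts were 66.4, 67.3 and 77.4 in OGD and 108, 84.3 and 111 in Control. Every OGD nerve was below every Control nerve. The log2 fold change was −0.52 (SE 0.16, 95% interval −0.87 to −0.18), with an adjusted p of 0.430 by edgeR, and it ran from −0.63 to −0.45 when each sample was left out in turn, OGD replicate 2 included. miR-669f was also low with CX-4945, at 70.8, 59.8 and 79.8, and stood between with MS-275, at 95.1, 91.4 and 90.9. The 3 OGD+MS-275 values lie within the Control range and above all OGD and OGD+CX-4945 values. miR-669f was the 1 member whose values did not overlap between OGD+MS-275 and OGD.

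miR-466g went the other way. Its normalised counts were 39.7, 49.6 and 47.0 in OGD+MS-275, 40.1, 57.8 and 41.0 in OGD+CX-4945, 37.8, 36.0 and 43.5 in OGD, and 28.6, 34.2 and 22.5 in Control. Every nerve with OGD was above every Control nerve. miR-466g passed the filter only through the drug groups, with 2 lanes above the limit in OGD+MS-275, 2 in OGD+CX-4945, 0 in OGD and 0 in Control, so the filter favoured values above Control and this separation supports nothing. The 3 comparisons also share the Control samples. The log2 fold changes against Control were 0.68 (SE 0.23, adjusted p = 0.111) with MS-275, 0.71 (SE 0.23, adjusted p = 0.212) with CX-4945 and 0.48 (SE 0.24, adjusted p = 0.747) with OGD alone by edgeR. The raw Control counts, 22, 26 and 22, were all under the limit, and the negative probes were lower in Control too. The counts above the negative-probe mean were 32.8, 41.4 and 24.6 in OGD+MS-275, 15.8, 38.4 and 34.2 in OGD+CX-4945, 18.5, −3.25 and 23.0 in OGD, and 6.75, 11.4 and 6.50 in Control. With that background taken off before the fit, the log2 fold change of OGD against Control was −0.14, where OGD replicate 2 is set to the lowest value, while those of OGD+CX-4945 and OGD+MS-275 were 1.38 and 1.55.

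**Figure D3:**
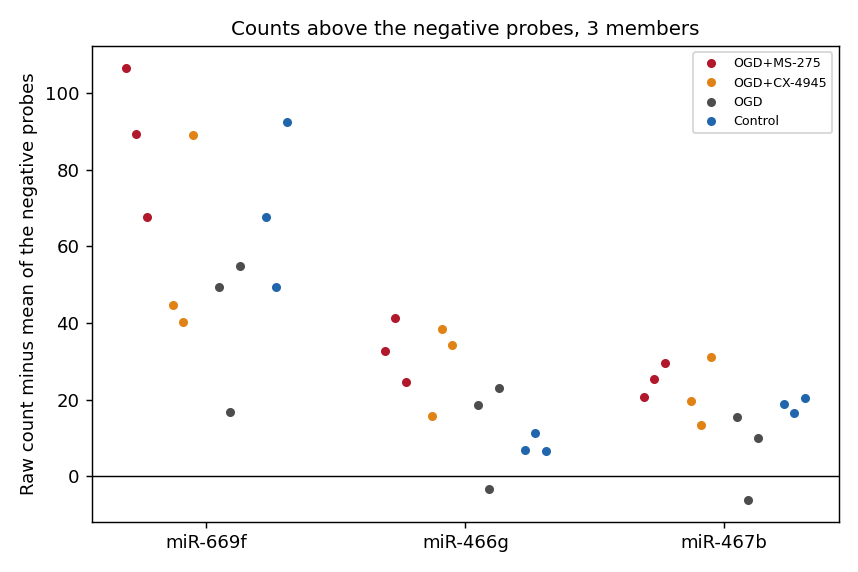
Raw count minus the mean of the lane's negative probes (vertical axis) for miR-669f, miR-466g and miR-467b, 1 point per sample and a colour per group; the line at 0 is the level of the negative probes. OGD replicate 2 lies under the line for miR-466g (−3.25) and for miR-467b (−6.25), and all miR-669f values lie above it.

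The other members differed less between OGD and Control. miR-467b had 35.0, 31.3 and 29.7 normalised counts in OGD and 44.3, 40.8 and 36.9 in Control, a log2 fold change of −0.33 (SE 0.24, adjusted p = 0.937 by edgeR). miR-669o had 43.3, 43.8 and 46.7 in OGD and 49.5, 54.0 and 52.2 in Control, a log2 fold change of −0.22 (SE 0.18, adjusted p = 0.937 by edgeR). For these 2 the groups do not overlap, but the differences are close to the SE. miR-467a was 48.5 ± 8.6 in OGD and 36.6 ± 6.4 in Control (SD, n = 3 each), a log2 fold change of 0.40 with overlapping groups. miR-467f, with its gene on chromosome 11, was 53.9 ± 6.3 in OGD and 60.0 ± 13.4 in Control. miR-669a and the miR-466a-3p probe overlapped between the groups, with log2 fold changes of −0.11 and 0.01. All 8 intervals lay within a 2-fold change either way on the counts as deposited. With background taken off, miR-467b was at −1.85, miR-669o at −1.49 and miR-669f at −0.99, and on the deposited signal at −1.41, −1.04 and −1.08, none called. After taking off the negative-probe mean, OGD replicate 2 had −6.25 counts of miR-467b and 1.75 of miR-669o. miR-466g, miR-467b and miR-669o had no OGD lane above the limit, so they were tested through the other groups. Their lack of overlap between OGD and Control supports nothing for that reason.

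**Figure D4:**
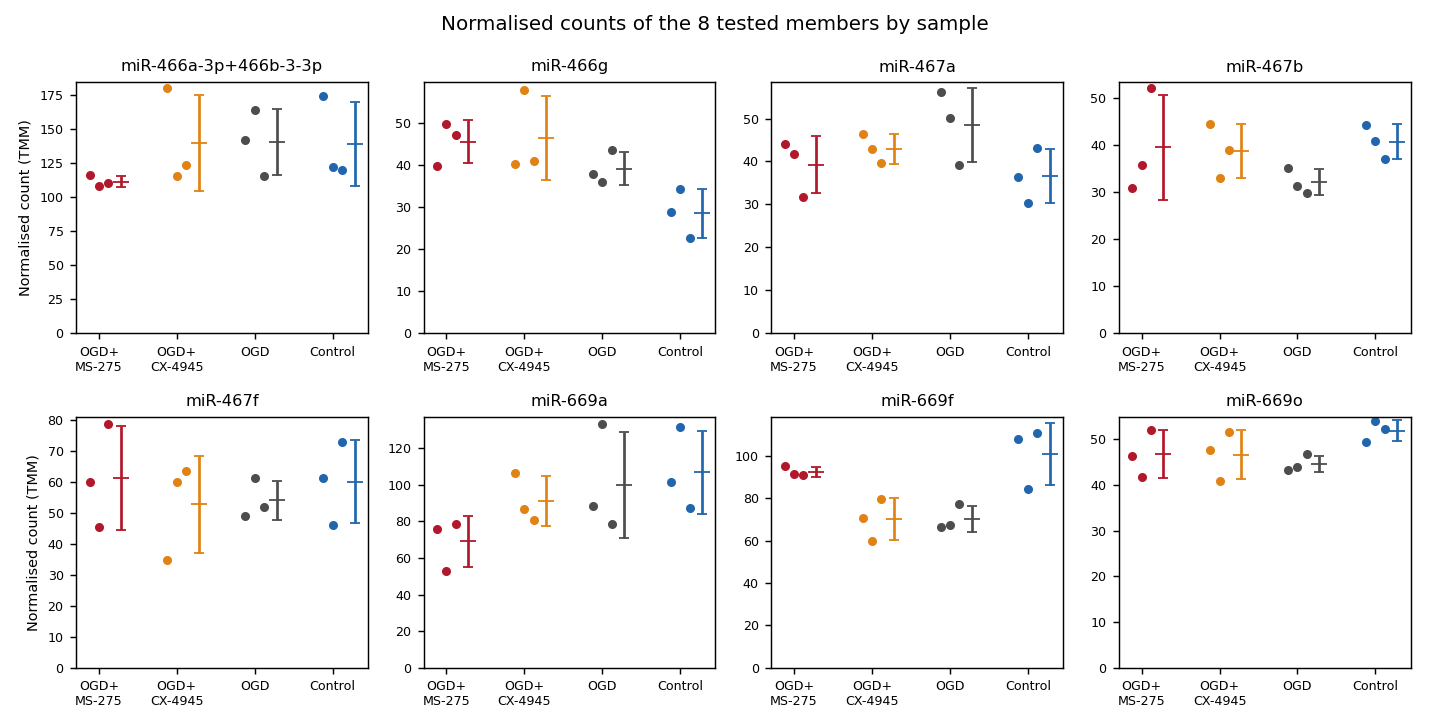
Normalised counts (vertical axes, from 0) of the 8 tested members in the 4 groups; points are samples, and the bar beside them is the mean ± SD of 3. miR-669f is low in OGD+CX-4945 and OGD and higher in OGD+MS-275 and Control, miR-466g is lowest in Control, and miR-669a is lowest in OGD+MS-275.

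OGD+MS-275 against OGD asks what the histone deacetylase inhibitor changed under deprivation. The test called 1 of the 217 probes (0.461%), which is no member. At an unadjusted p under 0.05, 2 of 8 members passed, against 20.7% of all probes, and 1 of 8 did not overlap, against 24%. The 2 are miR-669f, with a log2 fold change of 0.39 (SE 0.16, adjusted p = 0.223 by edgeR), and miR-669a. miR-669a, the repressor of MyoD, had 75.6, 53.1 and 78.6 normalised counts in OGD+MS-275 and 88.5, 133.0 and 78.5 in OGD, a log2 fold change of −0.51 (SE 0.22, adjusted p = 0.224 by edgeR). OGD+MS-275 replicate 3 and OGD replicate 3 had almost the same value, so the groups touch. The median over the 8 members was 0.13 and over all probes 0.03.

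Scalings that move all probes together shift both values. Scaled by the ligation controls, miR-669f was −0.05 and miR-669a −1.01, where the median of all probes was −0.42. Scaled by the mRNA probes they were 0.89 and 0.04, where that median was 0.54. Relative to all probes, miR-669f was 0.38 and 0.34 higher and miR-669a was at −0.59 and −0.51, near the values above. With the ligation control level as a term in the fit, miR-669a was −0.06 and miR-669f 0.26. Across the 12 lanes, the log2 slope of miR-669a on the log2 level of the ligation controls was −0.51 (adjusted p = 0.0513 by edgeR), and that of the miR-466a-3p probe was −0.46 (adjusted p = 0.0426 by edgeR). The slope passed for 25 of the 217 probes. The groups differ in ligation level as given above, so drug and ligation cannot be fully told apart in this comparison.

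OGD+CX-4945 against OGD asks the same of the casein kinase 2 inhibitor. The test called 0% of the probes. At an unadjusted p under 0.05, 0 of 8 members passed, against 7.37% of all probes, and 0 of 8 did not overlap, against 6.45%. The log2 fold changes ran from −0.18 for miR-467a to 0.27 for miR-467b, with a median of −0.00, and 0.03 over all probes. For miR-669f the difference was 0.00, with a 95% interval from −0.35 to 0.35. All 8 intervals lay within a 2-fold change on the counts as deposited. With background taken off, miR-466g, miR-467b and miR-669o were at 1.52, 1.56 and 1.13. On the deposited signal they were at 1.47, 1.38 and 0.92. In OGD+MS-275 against OGD these values were 1.70, 1.82 and 1.32, and 1.67, 1.66 and 1.19. None of these was called. In that comparison, with background taken off, miR-669a and the miR-466a-3p probe were lower, at −0.48 and −0.26. miR-466g, miR-467b and miR-669o had no OGD lane above the limit and passed the filter through other groups. Their values against OGD therefore support nothing.

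The drug groups were then set against Control. In OGD+MS-275 against Control the test called 1.38% of the probes and 0 of 8 members. At an unadjusted p under 0.05, 2 of 8 members passed, against 23% of all probes, and 3 of 8 did not overlap, against 28.6%. The 3 were miR-466g, higher as given above, miR-669a and the miR-466a-3p probe, both lower. Since miR-466g passed the filter only through the drug groups, its part in these counts supports nothing. miR-669a had 102, 132 and 87.1 normalised counts in Control, all above the OGD+MS-275 values given above, and its log2 fold change was −0.62 (SE 0.22, adjusted p = 0.112 by edgeR). With the ligation control level in the fit the value was −0.18 (adjusted p = 0.760). With the first 3 digits of the sample number in the title as a block it was −0.70 and its adjusted p 0.0260 by edgeR, the only setting run in which a pairwise difference of a member was called. That block called 37 of all 217 probes (17.1%) in this comparison, so 1 of 8 members is near the background share. The labels do not say what those digits stand for. The miR-466a-3p probe had 116, 108 and 110 in OGD+MS-275 and 174, 122 and 120 in Control, a log2 fold change of −0.31 (SE 0.20, adjusted p = 0.369 by edgeR), and 0.08 with the ligation level in the fit. The median over the 8 was −0.09, and −0.00 over all probes.

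In OGD+CX-4945 against Control the test called 0%, and 2 of 8 members passed at an unadjusted p under 0.05, against 8.29% of all probes. The same 2, miR-466g and miR-669f, were those that did not overlap, against 7.83% of all probes. miR-466g passed the filter only through the drug groups, so its part in both counts supports nothing. The log2 fold change of miR-669f was −0.52 (SE 0.16, adjusted p = 0.212 by edgeR), next to −0.52 for OGD alone, with the same Control samples in both. The median over the 8 was −0.11, and 0.02 over all probes.

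**Figure D5:**
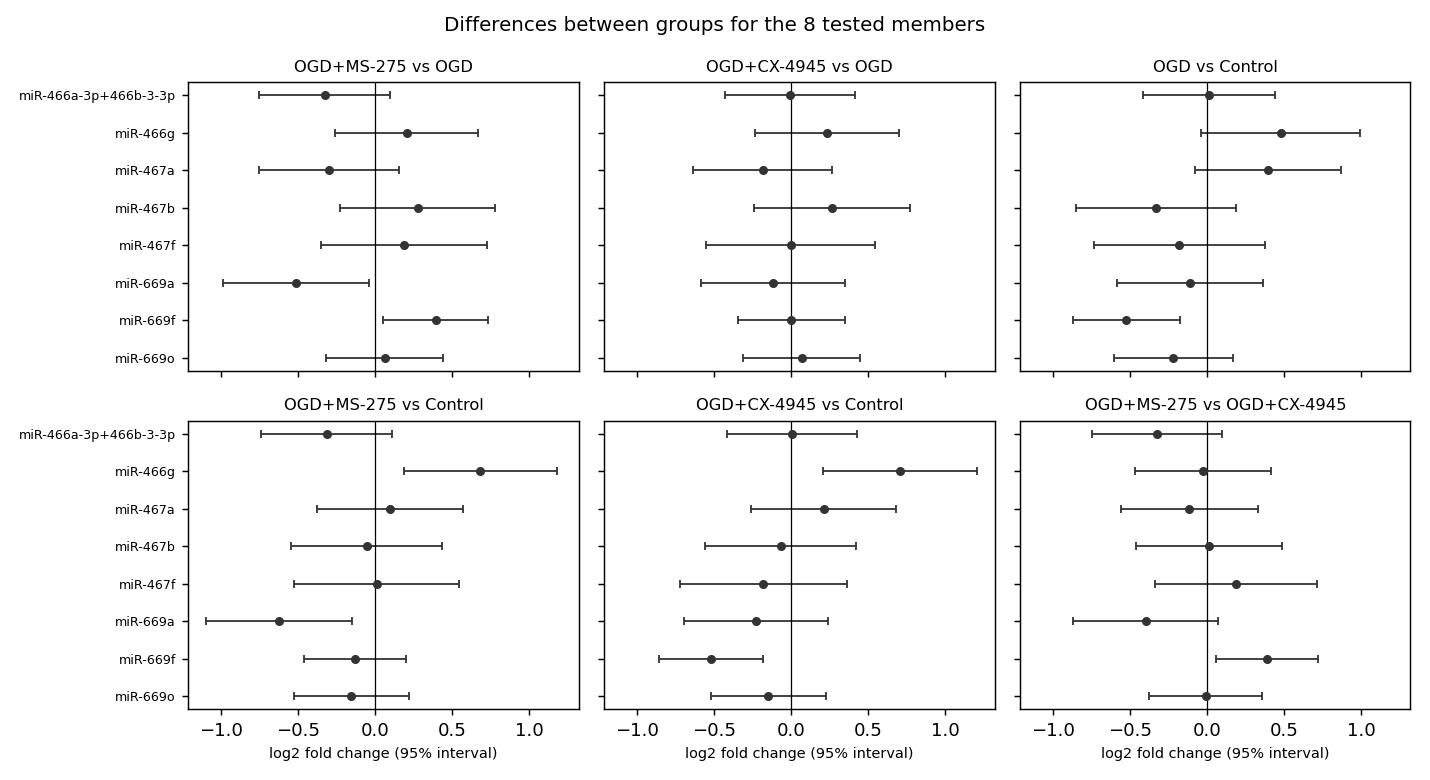
log2 fold change (horizontal axis) and its 95% interval for the 8 tested members in the 6 pairwise comparisons, first-named group over second. The intervals that do not cross 0 belong to miR-669f (OGD vs Control, OGD+MS-275 vs OGD, OGD+CX-4945 vs Control, OGD+MS-275 vs OGD+CX-4945), miR-669a (OGD+MS-275 vs OGD and vs Control) and miR-466g (both drug groups vs Control); none had an adjusted p under 0.05.

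The drug groups were also set against each other. In OGD+MS-275 against OGD+CX-4945 the test called 0%, 1 of 8 members passed at an unadjusted p under 0.05, against 4.15%, and 2 of 8 did not overlap, against 8.76%. miR-669f was higher with MS-275, with a log2 fold change of 0.39 (SE 0.16, adjusted p = 0.920 by edgeR), and miR-669a lower, at −0.40 (SE 0.22, adjusted p = 0.920). The median over the 8 was −0.02, as over all probes. In the test of any difference among the 4 groups, 0.461% of the probes were called and 2 of 8 members passed at an unadjusted p under 0.05, against 15.2%. They were miR-669f (adjusted p = 0.221 by edgeR) and miR-466g (adjusted p = 0.294 by edgeR). For miR-466g the filter favoured values above Control, so its part in this count supports nothing.

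The uncalled differences had no single direction. miR-669f and miR-669a, both within Sfmbt2, stood on opposite sides in OGD+MS-275 against OGD, at 0.39 and −0.51. Of the 8 members, 3 were higher and 5 lower in OGD against Control, 5 higher and 3 lower in OGD+MS-275 against OGD, and 4 each in OGD+CX-4945 against OGD. Over all 217 probes, 104 were lower in OGD against Control, 96 in OGD+MS-275 against OGD and 99 in OGD+CX-4945 against OGD.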

How the data were processed

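The authors' deposited table holds raw barcode counts per probe and lane, 1 nCounter lane per sample, per the file headers. A second deposited table holds the authors' processed signal, whose making is not given in the sources used here; it was used for 1 alternative, as log2 of the value plus 1. Groups came from the agent label. Members and lists were chosen with earlier results of these data known. Members were the mouse miRNA probes whose name, split at each plus sign, is a miR-297, miR-466, miR-467 or miR-669. A probe was tested when its count passed the mean plus 2 SD of the lane's 8 negative probes in at least 3 of 12 lanes, which left 217 probes and 8 members.

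Groups were compared with edgeR 4.0.16 in R 4.3.3 (quasi-likelihood, TMM scaling, robust), with limma 3.58.1 and DESeq2 1.42.0 for alternatives. A single fit held the 12 samples with 4 group means, with Benjamini-Hochberg adjustment over the 217 probes. The biological coefficient of variation was 16.6%. Every tested member is named with values, and untested members are named where a lane passed the limit, with the exceptions stated. Gene names and sequences are RefSeq's (GRCm38.p6). 24 other settings were tried, 12 of them leaving out 1 sample each.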

Additional observations from a re-analysis of the deposited data

How the results depend on the processing

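No paired analysis was possible because the labels do not say that any number pairs the samples. As a substitute, the first 3 digits of the title number were fitted as a block; OGD+MS-275 has no sample in 1 of its 3 sets. With that block the number of members called was 1 for OGD+MS-275 vs Control, where 37 of 217 probes were called, and 1 for any difference among the 4 groups, where 18 were (8.29%); it was 0 in the main fit and in every other setting, and 0 for the other 5 comparisons throughout. No member value was called in the main fit, so no call was lost.

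The median log2 fold change of the tested members shifted by less than 0.102 in 112 of 144 values under other settings, and 32 moved further. That bound is the SD within groups of the members' median log2 level per lane. The medians are given for OGD vs Control, OGD+CX-4945 vs OGD, OGD+MS-275 vs OGD, OGD+CX-4945 vs Control, OGD+MS-275 vs Control and OGD+MS-275 vs OGD+CX-4945, in that order, where they moved. With mRNA probe scaling they were −0.30, 0.26, 0.62, 0.017, 0.25 and 0.22, where the median of all probes was −0.11, 0.26, 0.54, 0.15, 0.36 and 0.22. With ligation control scaling the last 5 were −0.27, −0.33, −0.32, −0.48 and −0.18, where all probes were at −0.26, −0.42, −0.19, −0.39 and −0.18. Background subtracted, they were −0.43, 0.28, 0.79 and −0.29, and 0.18 for the drugs against each other, where all probes were at −0.11, 0.14, 0.24, 0.0029 and 0.018. On the deposited signal they were −0.55, 0.51 and 1.11, and 0.22 and 0.24 for the last 2, where all probes were at −0.33, 0.49, 0.71, 0.30 and 0.17. With no filter (all 33 members) they were −0.037 for OGD vs Control, −0.15 for OGD+MS-275 vs OGD and 0.0015 for OGD+CX-4945 vs Control. With the filter at all 12 lanes, which leaves 2 members, they were −0.031, −0.39, −0.42 and −0.36 for OGD vs Control and the 3 comparisons of OGD+MS-275 with OGD, Control and OGD+CX-4945. With the ligation covariate they were 0.13 for OGD+CX-4945 vs OGD and 0.083 for OGD+CX-4945 vs Control. The causes of these moves were not tested.

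Leaving out 1 sample at a time gave medians from −0.016 to 0.14 for OGD+MS-275 vs OGD and from −0.21 to −0.036 for OGD+MS-275 vs Control, the values −0.016 and −0.21 without OGD+MS-275 replicate 3. With a limit of the mean plus 3 SD, 3 members per lane passed in OGD+CX-4945 and 4.33 in Control. With no background taken off, the summed level per 1000000 miRNA counts was 2248 in OGD+MS-275, 2309 in OGD+CX-4945, 2317 in OGD and 2242 in Control. Of 1098 values of single members under other settings, 121 had another sign, 104 of them where the main value was within 1 SE of 0. All members but 2 had counts at or under the background limit in some lanes. The coefficient of variation within groups was not smallest for those 2. It was 19.0% for the miR-466a-3p probe and 22.0% for miR-669a, where the tested members ran from 8.5% (miR-669o) to 23.7% (miR-467f).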
